A study of Mus musculus with 16 samples.

Results

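The complement system genes described here are 34 genes of the pathway, chosen by symbol: recognition molecules, the proteases they activate, components of the convertases that cleave C3 and C5, the terminal pathway, regulators in plasma and on membranes, and receptors of the released peptides. Each was represented by the probe set that the platform annotation assigns to it alone, the one of highest mean where there were several. Such a probe set was found for 32 of the 34, and all 32 passed the filter on low values, among 15908 genes tested. C3 and Cfd were not analysed here.

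RNA of whole liver from male C57Bl/6 mice was measured on 16 whole-transcript arrays in 4 groups of 4. Wild-type (WT) C57Bl6/J mice were untreated or had received 1 mg/kg LPS, the endotoxin of Gram-negative bacteria, and S534A mice were likewise untreated or had received 1 mg/kg LPS. S534A mice are homozygous for a knock-in allele of p65, the NF-kB subunit encoded by Rela, that replaces a serine by alanine. The allele was targeted in embryonic stem cells, of which 2 clones were injected, its selection cassette was removed by the FLPe recombinase, and carriers were backcrossed to C57Bl6/J before interbreeding; the change is in the germ line and thus in all cell types of the liver. Littermate controls, a vehicle group and the interval from injection to tissue collection are not mentioned in the labels. The design text attaches the LPS dose to the untreated S534A group also, and the sample titles and source names were followed instead. Whether the 4 samples of a group are 4 animals is not stated, so the p-values reflect only how these samples vary, possibly for technical reasons.

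Complement is a cascade of plasma proteins, most of them secreted by hepatocytes. C1q, mannose-binding lectins, ficolins and collectins bind microbial or damaged surfaces and activate serine proteases, which cleave C4 and C2, while the alternative pathway uses factor B, factor D and properdin. Both routes cleave C3 and then C5, releasing the anaphylatoxins C3a and C5a and starting the membrane attack complex, and regulators limit the process on host cells. In the liver the resident macrophages, Kupffer cells, carry complement receptors, and several complement genes are known as acute-phase genes.

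Levels are log2 values as deposited, so that a difference of 1 is a 2-fold difference. Array medians lay between 6.25 and 6.42. Rela, the targeted gene, stood at 10.03 to 10.34 in untreated WT, 9.88 to 10.13 in untreated S534A, 11.31 to 11.47 in LPS-treated WT and 11.37 to 11.43 in LPS-treated S534A arrays; a substitution leaves the transcript in place, so this does not check the genotype labels. Of 10 hepatocyte markers 9 were measured, each at a mean percentile of at least 98.5 within an array. In 3 untreated arrays, WT arrays 1 and 3 and S534A array 3, a clock gene score (Arntl subtracted from the mean of 5 genes of the opposite phase, such as Dbp and Per1) was −1.70, −1.77 and −2.55, against 0.96 to 3.47 in the other 5 untreated arrays. The score was −0.01 to 1.53 in LPS-treated WT arrays and −0.70 to 1.63 in LPS-treated S534A arrays. Counts are therefore also given without these 3 untreated arrays. Of untreated WT this leaves only arrays 2 and 4, at 3.43 and 3.47. It lowers precision and does not match untreated WT to LPS-treated WT in the score, so a call lost there cannot be assigned to the clock genes. Changes carry the standard error of the limma fit with 4 arrays a group, and "rose" or "fell" means a Benjamini-Hochberg adjusted p under 0.05 over all 15908 genes.

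After LPS the complement genes of WT liver moved in both directions. Of the 32 measured members 6 rose (18.8%, against 14.9% of all genes tested), 12 fell (37.5%, against 29.9%) and 14 were not called. In S534A liver 7 rose (21.9%, against 14.2%), 10 fell (31.2%, against 31.2%) and 15 were not called. The median change of the members was −0.07 in WT and −0.12 in S534A, beside −0.05 and −0.03 over all genes. With each array left out in turn it was −0.13 to −0.05 in WT and −0.13 to −0.09 in S534A. The lowest value in WT came without untreated WT array 2, where the median over all genes was −0.06. LPS-treated arrays lay entirely above untreated ones for 8 members in WT (12.7% of all genes) and 7 in S534A (16.4%), and entirely below them for 11 in WT (25.6%) and 13 in S534A (31.7%). With a minimum of 1.5-fold, 1 member rose and 4 fell in WT (7.98% and 11.9% of all genes), and 1 rose and 5 fell in S534A (7.27% and 13.4%). Without the 3 arrays with shifted clock genes 5 rose and 9 fell in WT (14.1% and 28.1% of all genes), and 6 rose and 9 fell in S534A (14.2% and 31.1%). The split also depends on scaling. When every array was set to a common median, the median over all genes became −0.16 in WT (from −0.05) and −0.13 in S534A (from −0.03), and there were 4 members higher and 16 lower in WT (11.6% and 40.8% of all genes) and 4 higher and 18 lower in S534A (10.7% and 39.2%).

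**Figure D1:**
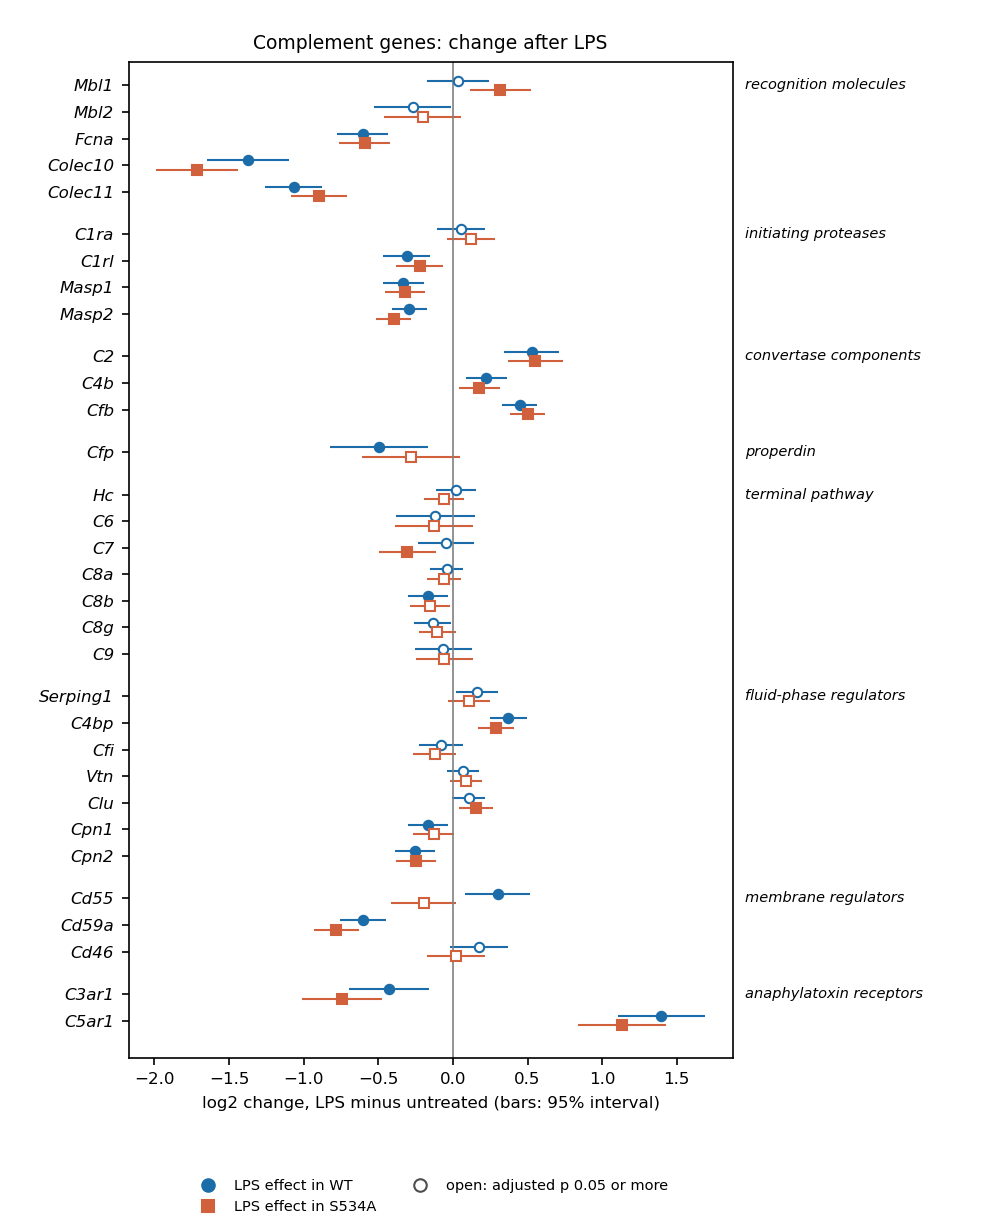
Change after LPS of the 32 measured complement genes, grouped by role, on the log2 scale (x axis) in WT (circles) and S534A (squares), with 95% intervals of the limma fit and open symbols where the adjusted p was 0.05 or more. The collectins Colec10 and Colec11 lie farthest to the left and C5ar1 farthest to the right, and the terminal pathway genes lie close to 0.

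Promoters are shown for called members among the largest rises (C5ar1, C4bp) and falls (Colec11, Fcna) in WT that the RefSeq promoter table holds, so that the stretch before each start can be set beside its response. In GRCm38.p6 they are chr7:16259339-16259588 for C5ar1, chr1:130661619-130661868 for C4bp, chr12:28623331-28623580 for Colec11 and chr2:25627975-25628224 for Fcna. All lie on the minus strand, hold the 250 bases before the start and are printed 5′ to 3′, with capitals for motif matches.
C5ar1: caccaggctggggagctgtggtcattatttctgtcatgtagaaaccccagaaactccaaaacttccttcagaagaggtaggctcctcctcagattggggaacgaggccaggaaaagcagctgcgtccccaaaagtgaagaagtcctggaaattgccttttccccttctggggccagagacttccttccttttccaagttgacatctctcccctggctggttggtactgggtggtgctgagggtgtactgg
C4bp: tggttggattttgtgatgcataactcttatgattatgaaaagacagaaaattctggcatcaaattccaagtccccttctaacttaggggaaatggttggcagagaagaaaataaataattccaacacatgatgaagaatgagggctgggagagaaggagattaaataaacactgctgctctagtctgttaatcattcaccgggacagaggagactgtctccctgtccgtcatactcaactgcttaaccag
Colec11: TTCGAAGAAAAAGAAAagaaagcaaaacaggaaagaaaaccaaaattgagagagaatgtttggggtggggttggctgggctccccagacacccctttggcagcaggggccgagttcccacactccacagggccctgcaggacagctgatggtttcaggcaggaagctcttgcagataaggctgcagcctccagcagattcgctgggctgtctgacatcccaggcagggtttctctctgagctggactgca
Fcna: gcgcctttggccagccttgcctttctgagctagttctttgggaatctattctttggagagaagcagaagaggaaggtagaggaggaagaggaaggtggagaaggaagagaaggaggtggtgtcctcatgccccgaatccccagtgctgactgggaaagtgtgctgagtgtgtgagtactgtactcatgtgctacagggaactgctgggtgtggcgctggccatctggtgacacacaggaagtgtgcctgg

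Both strands were searched for TTCNNNGAA (STAT type), for GGG and TTCC with any 3 bases between them (NF-kB type), for TTGCNNAA (C/EBP type) and for a pair of GAAA with any 2 bases between them (interferon response type). The table holds promoters of 26 of the 34 members. Among those it lacks are Colec10, the member with the largest fall in WT, and C2 and Cfb, which rose there more than C4bp. A member counted if any promoter entry of its symbol matched, while shares of all promoters are per entry. The counts and shares below therefore have different units. TTCNNNGAA was present in 5 of the 26 (C7, C8a, Colec11, Cpn2 and Masp2), against 7.02% of all 32841 promoters. The NF-kB type was present in 1, that of C3ar1 (4.65% of all), and TTGCNNAA in 4 (C1rl, C3, C9 and Cpn2, 9.57% of all). The interferon response type was present in 2 (Cd59a and Colec11, 2.98% of all). Of the promoters printed that of Colec11 held matches: TTCGAAGAA overlaps GAAAAAGAAA within 250 to 235 bases before the start. TTCNNNGAA is its own reverse complement, so any match to it fits on both strands. These are matches of letters in a short window.

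Among recognition molecules the collectins and ficolin A fell in both genotypes. Colec10, collectin liver 1, which binds sugars and partners with MASP proteases, stood at 9.51, 9.19, 9.52 and 9.55 in untreated WT arrays and at 8.27, 8.31, 7.76 and 7.96 after LPS. The S534A arrays had Colec10 levels of 9.70, 9.41, 9.47 and 9.60 untreated, then 7.81, 7.55, 7.94 and 8.02 with LPS. Every LPS-treated array was lower than every untreated array. The change was −1.37 ± 0.13 in WT (2.59-fold down, limma adjusted p = 2.05e-07) and −1.71 ± 0.13 in S534A (3.28-fold, 1.27e-08).

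Colec11, a related collectin whose product forms mixed complexes with that of Colec10, stood at 8.78, 8.47, 8.58 and 8.72 in WT without LPS and 7.50, 7.68, 7.57 and 7.53 with it. Its S534A levels were 8.49, 8.26, 8.65 and 8.51 without LPS and 7.62, 7.44, 7.61 and 7.65 with it. These groups did not overlap either, with changes of −1.07 ± 0.09 in WT (2.10-fold down, limma adjusted p = 4.73e-08) and −0.90 ± 0.09 in S534A (1.86-fold, 3.78e-07). Fcna encodes ficolin A, a lectin that also activates MASP proteases. WT arrays had Fcna at 9.67, 9.69, 9.48 and 9.58 untreated and 8.94, 9.03, 8.97 and 9.06 after LPS, and S534A arrays at 9.51, 9.25, 9.43 and 9.48 and 8.64, 8.80, 8.91 and 8.95. Within each genotype all LPS-treated arrays were again the lower ones, with changes of −0.60 ± 0.08 (limma adjusted p = 9.75e-06) and −0.59 ± 0.08 (1.22e-05).

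Mbl1 and Mbl2 encode mannose-binding lectins A and C. Mbl1 overlapped between untreated and LPS-treated WT arrays (11.41 to 11.75 and 11.56 to 11.83; 0.03 ± 0.10, limma adjusted p = 0.826). In S534A it rose, with 11.19 to 11.66 untreated and 11.71 to 11.78 after LPS (0.32 ± 0.10, 0.0124). That call was lost with median centring (0.0613) and without untreated S534A array 2, the lowest of its group (0.0525). Mbl2 stood at −0.27 ± 0.12 in WT (adjusted p = 0.0863) and −0.20 ± 0.12 in S534A (0.197), with overlapping groups. It passed as lower in WT with median centring, with array quality weights and without untreated WT array 2 (0.0159 to 0.0459), and in S534A with median centring (0.0493).

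Some of these genes are known from cells other than hepatocytes, whose markers also moved. In bulk liver fewer cells of a type and less RNA per cell cannot be told apart. Colec10 itself stands in the list of stellate cell and fibroblast markers. Of the 11 other genes of that list 7 fell in WT, and 7 fell and 1 rose in S534A. Their summed log2 level was 13.01 to 13.13 in untreated and 12.46 to 12.74 in LPS-treated WT arrays, and 13.04 to 13.23 and 12.42 to 12.68 in S534A. The largest part of this sum was Dcn alone. It stood at 12.16 to 12.41 untreated and 11.73 to 12.03 after LPS in WT, and at 12.27 to 12.51 and 11.68 to 12.00 in S534A. Fcna is also made by macrophages. Of 9 Kupffer cell markers that are not complement genes 7 fell and 1, Marco, rose in each genotype. Their summed log2 level was 12.51 to 12.92 in untreated and 11.12 to 11.45 in LPS-treated WT arrays, and 12.30 to 12.75 and 10.91 to 11.22 in S534A. No marker of these lists lay below the 30th percentile in all arrays, and the part of these cells in the changes of Colec10 and Fcna was not tested.

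The proteases of the lectin pathway fell by small amounts. Masp1 and Masp2 encode serine proteases that collectins, ficolins and mannose-binding lectins activate, and MASP-2 cleaves C4 and C2. Masp1 lay at 11.71 to 11.77 untreated and 11.32 to 11.48 after LPS in WT (−0.33 ± 0.06, limma adjusted p = 0.000388), and at 11.62 to 11.80 and 11.26 to 11.42 in S534A (−0.32 ± 0.06, 0.000503). Masp2 lay at 12.03 to 12.07 and 11.71 to 11.88 in WT (−0.29 ± 0.06, adjusted p = 0.000363), and at 12.14 to 12.21 and 11.72 to 11.81 in S534A (−0.40 ± 0.06, 1.77e-05). For both genes no groups overlapped. C1rl, a C1r-like protease, changed by −0.31 ± 0.07 in WT (adjusted p = 0.00241) and −0.22 ± 0.07 in S534A (0.0211). The call in S534A was lost after a second quantile normalization, without the 3 arrays with shifted clock genes, without S534A LPS array 1 or 3 and without untreated S534A array 4 (0.0502 to 0.0716).

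C1ra, which encodes the protease C1r of the classical pathway, was not called (0.05 ± 0.08 in WT and 0.12 ± 0.08 in S534A, limma adjusted p = 0.628 and 0.225). In S534A it passed as higher after a second quantile normalization and with array quality weights (0.0107 to 0.0397). A further probe set, assigned to C1ra and its near-identical copy C1rb together and not tested, lay at 11.98 to 12.14 in untreated and 12.09 to 12.24 in LPS-treated WT arrays, and at 11.85 to 12.00 and 12.13 to 12.23 in S534A. The 2 copies cannot be told apart there.

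All 3 measured convertase components rose in both genotypes. C2, which joins C4b in the classical and lectin convertase, stood at 10.35, 10.34, 10.21 and 10.56 in untreated WT arrays and 10.95, 10.87, 10.75 and 10.99 after LPS. In the S534A groups its levels were 10.57, 10.38, 10.22 and 10.34 untreated, against 10.98, 10.91, 10.92 and 10.90 with LPS. No groups overlapped, and the change was 0.53 ± 0.09 in WT (1.44-fold up, limma adjusted p = 9.15e-05) and 0.55 ± 0.09 in S534A (1.46-fold, 5.76e-05). Cfb encodes factor B, the corresponding component of the alternative pathway. WT arrays had Cfb at 12.51, 12.51, 12.55 and 12.52 without LPS and 12.95, 12.96, 12.93 and 13.03 with it. Cfb levels in S534A were 12.51, 12.44, 12.57 and 12.46, and 12.92, 13.03, 13.01 and 13.01 with LPS. These groups were clearly apart, with changes of 0.45 ± 0.06 (1.36-fold up, adjusted p = 4.47e-06) and 0.50 ± 0.06 (1.41-fold, 1.23e-06).

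C4b, the fourth component, rose in WT and stood at 12.24 to 12.41 untreated and 12.47 to 12.57 after LPS (0.22 ± 0.06, limma adjusted p = 0.00853). In S534A it rose with overlapping groups (12.23 to 12.43 and 12.41 to 12.53; 0.18 ± 0.06, 0.0319). Median centring ended both calls (0.141 in WT, 0.346 in S534A). The call in S534A was also lost with the replicate block and without S534A LPS array 1 or 3 or untreated S534A array 1, 2 or 4 (0.0529 to 0.0961). By the RefSeq gene order C2 and Cfb are immediate neighbours on chromosome 17, and 5 protein-coding genes lie between Cfb and C4b. C4b has a near-identical copy, C4a, described below, and whether the probes of each detect the other was not tested.

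Cfp encodes properdin, which stabilises the alternative pathway convertase and is made mainly by myeloid cells. It fell in WT, from a mean of 9.30 ± 0.22 (SD, n = 4) to 8.81 ± 0.13 (−0.50 ± 0.16, limma adjusted p = 0.0151), with no overlap. The call was lost without untreated WT array 4 (0.0514) and without the 3 arrays with shifted clock genes (0.0721). In S534A it stood at −0.28 ± 0.16 with overlapping groups (0.159), and passed with array quality weights, without S534A LPS array 1 and without untreated S534A array 2 (0.0134 to 0.0465). Most Kupffer cell markers given above fell too, whereas 10 of 12 neutrophil markers rose in each genotype. Of the monocyte markers Plac8 and Ms4a4c rose and Lyz2 fell in both genotypes, as given below. The part of these cells in the values of Cfp was not tested.

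The terminal pathway genes, which encode C5 (Hc) and the C6 to C9 parts of the membrane attack complex, had small changes. Of the 7, 1 fell in WT and 1, another gene, fell in S534A. Changes lay between −0.17 and 0.02 in WT and between −0.30 and −0.06 in S534A. The 95% intervals of all 7 lay within ± 0.5 in both genotypes, with outermost bounds of −0.38 and 0.15 in WT and −0.49 and 0.14 in S534A. C8b, the beta chain of C8, fell in WT (−0.17 ± 0.06, limma adjusted p = 0.0379) and stood at −0.15 ± 0.06 in S534A (0.0554). The call in WT was lost with the replicate block, with only the compared groups fitted, without the 3 arrays with shifted clock genes, without untreated WT array 1, 3 or 4 and without WT LPS array 1 or 4 (0.0563 to 0.242). In S534A it passed with 6 other settings and without S534A LPS array 3 (0.00383 to 0.0498).

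C7 fell in S534A and stood at 5.81 to 6.25 untreated and 5.59 to 5.71 after LPS (−0.30 ± 0.09, limma adjusted p = 0.00971); its change was −0.04 ± 0.09 in WT (0.750). Its levels lay a little above the 30th percentile of the arrays, which was 5.25 to 5.44. Hc, C6, C8a, C8g and C9 were called in neither genotype. With median centring C8a and C8g passed as lower in both genotypes (0.0286 and 0.00350 in WT, 0.0207 and 0.0106 in S534A) and Hc in S534A (0.0479). C8g also passed in WT with array quality weights, with a trended and robust prior and without WT LPS array 3 (0.0156 to 0.0490).

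Of the 7 fluid-phase regulators 1 rose and 2 fell in WT, and 2 rose and 1 fell in S534A. C4bp encodes C4b-binding protein, which speeds the decay of the classical convertase. It rose in both genotypes with no overlap and stood at 12.38 to 12.54 untreated and 12.80 to 12.87 after LPS in WT (0.37 ± 0.06, limma adjusted p = 5.22e-05) and at 12.49 to 12.66 untreated and 12.84 to 12.87 after LPS in S534A (0.29 ± 0.06, 0.000545). Cpn2, the regulatory subunit of carboxypeptidase N, which inactivates C3a and C5a, fell in both (−0.26 ± 0.06, adjusted p = 0.00297, and −0.25 ± 0.06, 0.00351). The catalytic subunit, Cpn1, fell in WT with overlapping groups (−0.17 ± 0.06, 0.0436) and stood at −0.13 ± 0.06 in S534A (0.117).

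The call of Cpn1 in WT lay close to the threshold. It was lost with the replicate block, with only the compared groups fitted and without the 3 arrays with shifted clock genes. It was also lost without untreated WT array 1, 3 or 4, WT LPS array 1, 3 or 4, untreated S534A array 1, 2 or 4, or S534A LPS array 2, 3 or 4 (limma adjusted p of 0.0513 to 0.227 over these settings). In S534A Cpn1 passed with median centring, array quality weights and a trended and robust prior (0.00841 to 0.0479). Clu, clusterin, which keeps the terminal complex from inserting into membranes, rose in S534A (0.15 ± 0.05, 0.0266) and stood at 0.11 ± 0.05 in WT (0.125; 0.0310 with a trended and robust prior). Its call in S534A was lost with median centring, the replicate block, without the 3 arrays with shifted clock genes, without S534A LPS array 2 or 3 and without untreated S534A array 2, 3 or 4 (0.0511 to 0.464).

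The other fluid-phase regulators were not called. Serping1, the C1 inhibitor, stood at 0.16 ± 0.07 in WT (limma adjusted p = 0.0605) and 0.11 ± 0.07 in S534A (0.214). It passed in WT in 3 other settings and without untreated WT array 4 (0.0172 to 0.0443), and in S534A with array quality weights (0.0300). Cfi, the protease factor I, stood at −0.08 ± 0.07 and −0.12 ± 0.07, and passed as lower with median centring (0.0338 and 0.0137). Vtn, vitronectin, stood at 0.07 ± 0.05 and 0.09 ± 0.05, with no overlap of groups in either genotype, and passed in S534A with a trended and robust prior (0.0200).

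Membrane regulators differed from one another. Cd59a, which blocks assembly of the membrane attack complex on host cells, stood at 11.72, 11.44, 11.70 and 11.73 in untreated WT, compared with 11.01, 11.06, 11.06 and 11.05 after LPS. For S534A its levels were 11.65, 11.60, 11.64 and 11.72, and 10.82, 10.77, 10.97 and 10.92 with LPS. All LPS-treated arrays lay below all untreated ones, with changes of −0.60 ± 0.07 in WT (1.52-fold down, limma adjusted p = 2.90e-06) and −0.78 ± 0.07 in S534A (1.72-fold, 1.44e-07). Cd55, decay-accelerating factor, which dissociates the convertases, stood at 7.49, 7.52, 7.46 and 7.83 in untreated WT, compared with 7.92, 8.10, 7.88 and 7.61 after LPS. Untreated S534A arrays had Cd55 at 7.74, 7.67, 7.87 and 7.76, and LPS-treated ones at 7.46, 7.51, 7.72 and 7.58. The groups overlapped in both genotypes. Cd55 rose in WT (0.30 ± 0.10, adjusted p = 0.0251) and stood at −0.19 ± 0.10 in S534A (0.140).

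The call of Cd55 in WT was lost with median centring, with only the compared groups fitted, without the 3 arrays with shifted clock genes, without untreated WT array 1, 2 or 3 and without WT LPS array 1 or 2 (limma adjusted p of 0.0589 to 0.228). With median centring the change in S534A passed as lower (adjusted p = 0.0384). Cd46, membrane cofactor protein, stood at 0.18 ± 0.09 in WT (0.136) and 0.02 ± 0.09 in S534A (0.865), with levels around the 30th percentile of the arrays.

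The receptors of the anaphylatoxins changed in opposite directions. C5ar1, the main receptor of C5a and a gene of neutrophils and macrophages, stood at 6.05, 6.09, 5.77 and 6.20 in untreated WT, and at 7.32, 7.81, 7.18 and 7.39 with LPS. The S534A levels of C5ar1 were 6.07, 6.19, 5.85 and 6.29 untreated, then 7.40, 7.03, 7.40 and 7.10 with LPS. The groups were far apart, with changes of 1.40 ± 0.14 in WT (2.63-fold up, limma adjusted p = 3.57e-07) and 1.13 ± 0.14 in S534A (2.19-fold, 3.73e-06). C3ar1, the receptor of C3a, stood at 7.72, 7.64, 7.68 and 8.03 in untreated WT, and at 7.45, 7.59, 7.11 and 7.21 with LPS. Its S534A levels were 8.05, 7.57, 7.79 and 7.73 untreated, then 7.05, 6.80, 7.20 and 7.11 with LPS. It fell with no overlap in either genotype, with changes of −0.43 ± 0.13 in WT (1.35-fold down, adjusted p = 0.0105) and −0.74 ± 0.13 in S534A (1.67-fold, 0.000123).

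Markers of myeloid cells moved in both directions as well. Of 12 neutrophil markers 10 rose in each genotype and none fell. Their summed log2 level was 9.80 to 11.00 in untreated and 13.88 to 14.01 in LPS-treated WT arrays, and 10.01 to 10.17 and 13.82 to 13.95 in S534A. Most of the sum after LPS was Lcn2, which is also an acute-phase gene of hepatocytes. The sum of the other 11, formed after the values were seen, was 9.17 to 9.30 untreated and 10.93 to 11.71 after LPS in WT, and 9.25 to 9.36 and 11.10 to 11.57 in S534A. Of 7 monocyte markers 6 were measured, of which 1 lay below the 30th percentile in all arrays and 4 passed the filter. Plac8 and Ms4a4c rose in both genotypes (2.42 ± 0.15 and 1.96 ± 0.14 in WT, 2.62 ± 0.15 and 1.84 ± 0.14 in S534A), and F13a1 rose in S534A (0.22 ± 0.08). Lyz2, also a gene of macrophages, fell in both (−0.87 ± 0.11 and −0.76 ± 0.11). The summed level of the 6, most of it Lyz2 in untreated arrays, was 10.96 to 11.49 untreated and 10.99 to 11.41 after LPS in WT, and 10.59 to 10.96 and 10.82 to 11.02 in S534A. Without Lyz2, left out after its values were seen, it was 8.25 to 8.47 and 9.97 to 10.58 in WT, and 8.01 to 8.33 and 10.01 to 10.19 in S534A. The fall of Kupffer cell markers is given above, and the part of these cells in the changes of C5ar1 and C3ar1 was not tested.

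**Figure D2:**
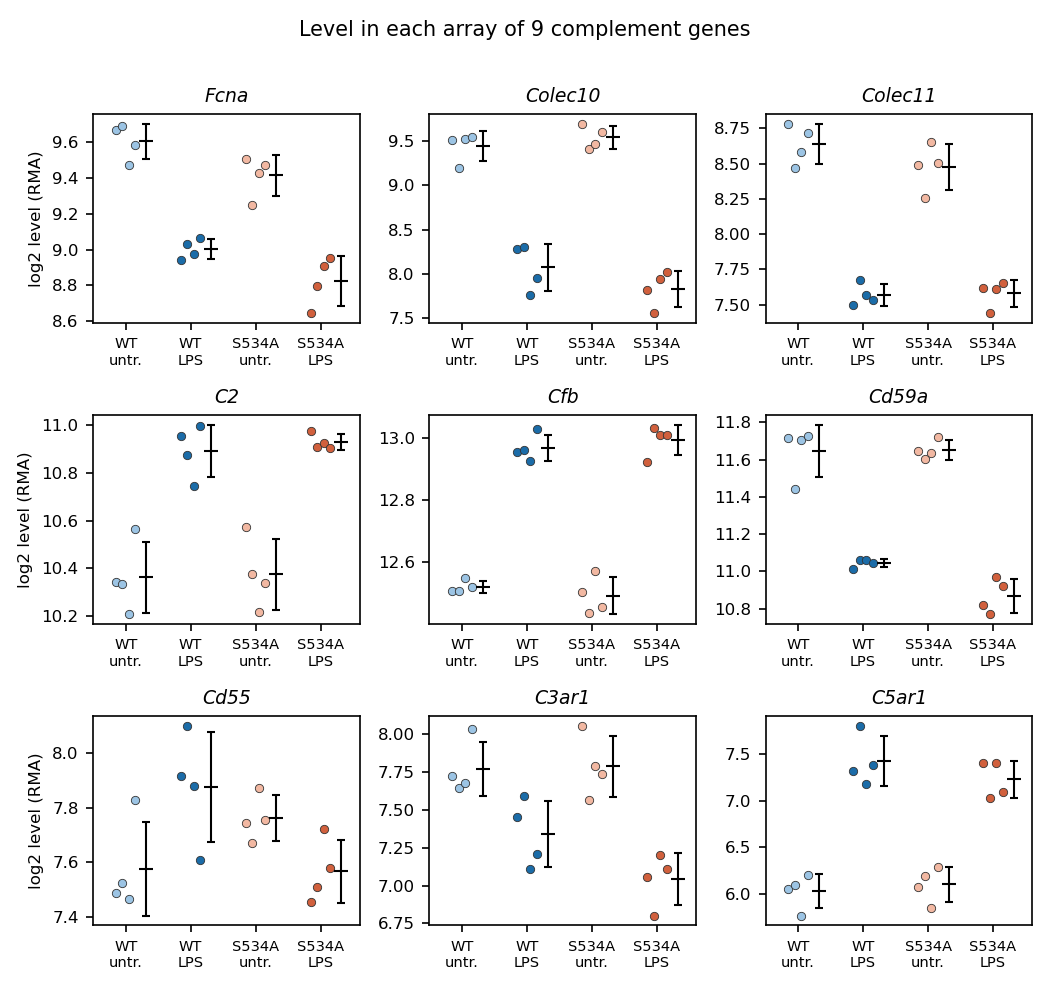
Log2 level (RMA value, y axis) of 9 complement genes in each array, by group, with black bars for the group mean and SD (n = 4). In each genotype the LPS-treated arrays of Fcna, Colec10, Colec11, Cd59a and C3ar1 lie below the untreated ones and those of C2, Cfb and C5ar1 above them, and for Cd55 the groups overlap.

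Complement genes outside the 34 showed a similar mixture. Of 29 symbols listed, 23 had a probe set of their own and 21 passed the filter. In WT 5 rose and 8 fell (23.8% and 38.1%, against 14.9% and 29.9% of all genes). In S534A 5 rose and 9 fell (23.8% and 42.9%, against 14.2% and 31.2%). Their median changes were 0.04 in WT and −0.09 in S534A, beside −0.05 and −0.03 over all genes. The 3 chains of C1q, the recognition molecule of the classical pathway and a product of macrophages, fell in both. C1qa changed by −0.82 ± 0.11 in WT and −0.66 ± 0.11 in S534A, C1qb by −0.88 ± 0.17 and −0.80 ± 0.17, and C1qc by −1.26 ± 0.16 and −1.22 ± 0.16 (limma adjusted p of 4.46e-06 to 0.00105). Vsig4, a receptor of C3 fragments on Kupffer cells, fell and stood at 10.64 to 11.42 untreated and 8.67 to 9.11 after LPS in WT (−2.19 ± 0.20, adjusted p = 1.53e-07) and at 10.53 to 11.29 untreated and 7.96 to 8.86 after LPS in S534A (−2.52 ± 0.20, 2.72e-08). These 4 genes belong to the Kupffer cell list themselves, whose other markers are given above, and the part of those cells was not tested.

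C5ar2, the second receptor of C5a, fell in both genotypes with no overlap (−0.93 ± 0.11 in WT, limma adjusted p = 1.89e-06, and −0.74 ± 0.11 in S534A, 2.15e-05). It is the immediate neighbour of C5ar1 on chromosome 7, so that receptors of the same ligand, side by side in the genome, moved in opposite directions. Itgam, the alpha chain of complement receptor 3, rose (1.22 ± 0.15, 5.53e-06, and 1.18 ± 0.15, 8.29e-06). Its partner chain Itgb2 rose too (0.55 ± 0.12, 0.00128, and 0.36 ± 0.12, 0.0220), a call lost in S534A with median centring, without S534A LPS array 1 and without untreated S534A array 2 (0.0548 to 0.100). Most neutrophil markers rose beside these chains, while most Kupffer cell markers and Lyz2 fell, and the part of these cells was not tested. Cd93, once described as a C1q receptor and expressed by endothelium, rose (1.14 ± 0.13, 1.80e-06, and 1.01 ± 0.13, 6.82e-06), while 9 of 11 sinusoidal endothelial markers fell in each genotype and 2 rose. Thbd, thrombomodulin, its neighbour on chromosome 2, rose by 0.62 ± 0.19 (0.0113; 0.0925 without the 3 arrays with shifted clock genes) and 0.87 ± 0.19 (0.000912).

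Cd59b, a duplicated gene related to Cd59a and next to it, fell (−0.46 ± 0.10 in WT, limma adjusted p = 0.000887, and −0.70 ± 0.10 in S534A, 1.60e-05), and cross-detection between the pair was not tested. C1qbp, a mitochondrial protein that binds C1q, fell (−0.53 ± 0.09, 8.75e-05, and −0.46 ± 0.09, 0.000292). Susd4, a membrane regulator, fell (−0.87 ± 0.28, 0.0178, and −1.04 ± 0.28, 0.00601). Its untreated WT arrays spread over 9.73 to 10.89, and the call in WT was lost with array quality weights, without untreated WT array 2 or 4 and without WT LPS array 2 (0.0531 to 0.0897).

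C4a rose (0.43 ± 0.16 in WT, limma adjusted p = 0.0377, and 0.46 ± 0.16 in S534A, 0.0271). Its call was lost in WT with median centring, without the 3 arrays with shifted clock genes, without untreated WT array 1 or 3 and without WT LPS array 1, 2 or 3 (0.0621 to 0.299). In S534A it was lost with median centring, with only the compared groups fitted, without those 3 arrays, without S534A LPS array 2 or 3 and without untreated S534A array 3 (0.0532 to 0.107). Cfhr3 fell in S534A (−0.28 ± 0.10, 0.0318) and stood at −0.09 ± 0.10 in WT (0.535). The former call was lost without S534A LPS array 2 or 4 and without untreated S534A array 1 (0.0802 to 0.110). C1s1, C1s2, Fcnb, Itgax, Cr1l, Csmd1 and Calr were called in neither genotype. Without the 3 arrays with shifted clock genes 3 of these other genes rose and 8 fell in WT (14.1% and 28.1% of all genes).

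**Figure D3:**
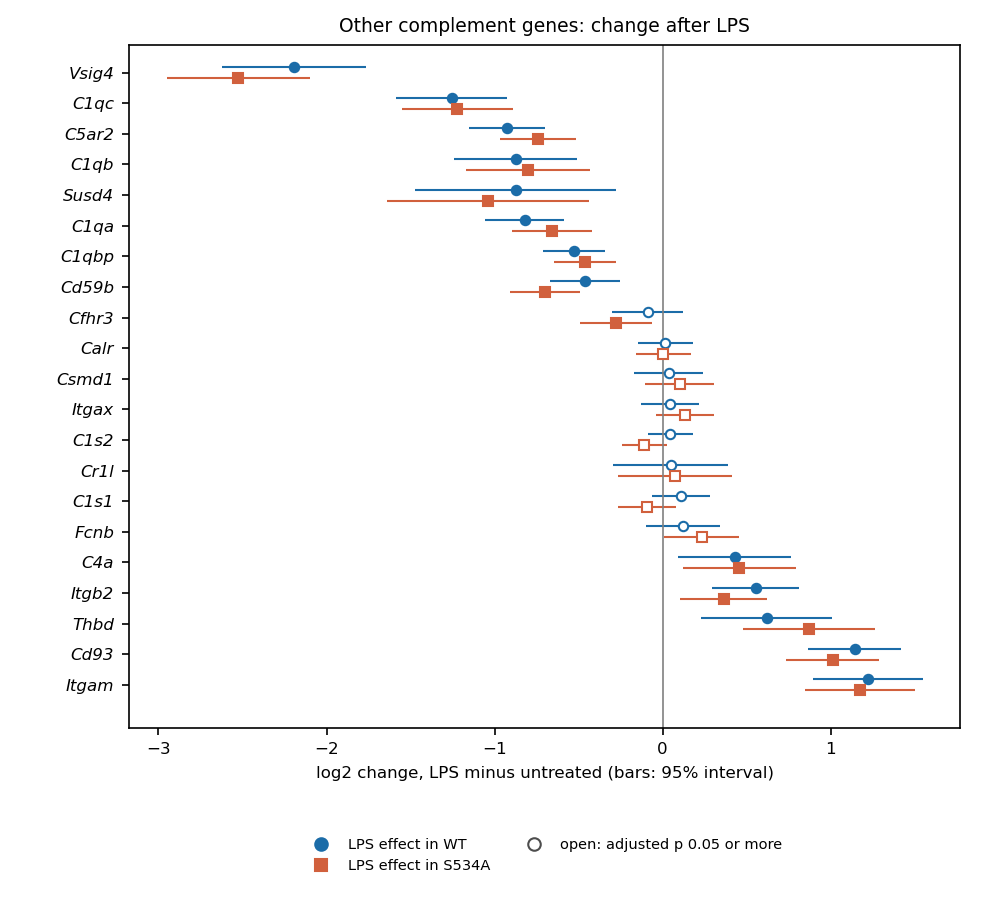
Change after LPS on the log2 scale (x axis) of 21 complement genes outside the 34, in WT (circles) and S534A (squares), ordered by the change in WT, with 95% intervals of the limma fit and open symbols where the adjusted p was 0.05 or more. Vsig4 and C1qc lie at one end and Itgam and Cd93 at the other.

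The series compares the response to LPS between p65 S534A and WT liver, groups that share no arrays. Of the 32 members 14 were called the same way in both, 5 higher (C2, C4b, Cfb, C4bp and C5ar1) and 9 lower (Colec10, Colec11, Fcna, C1rl, Masp1, Masp2, Cpn2, Cd59a and C3ar1). Another 4 were called in WT (Cfp, C8b, Cpn1 and Cd55) and 3 in S534A (Mbl1, C7 and Clu), and 11 in neither. The sign was the same for 30 of 32. As a description across genes, which are not independent replicates, the changes had a Pearson r of 0.94 over the 32 members and differed by a median of 0.06. Shared calls, signs and r were not computed over all genes tested. Whether this likeness of the genotypes is particular to complement genes therefore cannot be told. For the difference itself, the interaction of genotype and LPS, limma called 0 of the 32 members (0% of all genes), and 1 had an unadjusted p under 0.05 (3.12%, against 4.82% of all genes).

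The members of lowest p in the interaction were Cd55, Mbl1, C7, Colec10 and Cd59a. The response of Cd55 differed by −0.49 ± 0.15 (S534A minus WT, limma unadjusted p = 0.00369, adjusted p = 0.951), with a 95% interval from −0.80 to −0.19. Mbl1 stood at 0.28 ± 0.14, C7 at −0.26 ± 0.13, Colec10 at −0.34 ± 0.18 and Cd59a at −0.18 ± 0.10, each at an adjusted p of 0.951. The intervals of 25 members lay within ± 0.5, and those of the other 7 reached beyond it.

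After LPS limma called 0 of 32 members between S534A and WT (0% of all genes), and 5 had an unadjusted p under 0.05 (15.6%, against 3% of all genes): Cd55 (−0.31 ± 0.10, unadjusted p = 0.00848), Cd59a (−0.18 ± 0.07), C3ar1 (−0.30 ± 0.13), Fcna (−0.18 ± 0.08) and C7 (−0.19 ± 0.09), each with an adjusted p of 1.00. Each of the 5 had the lower mean in S534A. The 9 Kupffer cell markers that are not complement genes also had lower means there (a median of −0.21, from −0.35 to −0.04, none called), and their part in the values of Fcna and C3ar1 was not tested. Arrays of the genotypes did not overlap for Cd59a and C7, lower in S534A, and C8a, higher in S534A, against 1.29% and 0.742% of all genes. Intervals of 29 members lay within ± 0.5, the others being those of Cd55, Colec10 and C3ar1. Of the 21 other complement genes 0 were called, and 2 had an unadjusted p under 0.05 (9.52%, against 3% of all genes). These were Cd59b (−0.37 ± 0.10, limma unadjusted p = 0.00167), with no overlap of groups, and Vsig4 (−0.48 ± 0.20), with overlap.

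Without treatment limma called 0 of 32 members (0.00629% of all genes higher and 0.00629% lower), and 2 had an unadjusted p under 0.05 (6.25%, against 8.88% of all genes). The 5 of lowest p were C1rl (−0.19 ± 0.07, adjusted p = 0.460), Fcna (−0.19 ± 0.08), Mbl1 (−0.20 ± 0.10), Masp2 (0.11 ± 0.06) and Hc (0.13 ± 0.06). Arrays of the genotypes did not overlap for C1rl and C8g, lower in S534A (3.62% of all genes), and for Masp2 and C8a, higher in S534A (2.07%). Intervals of 31 members lay within ± 0.5, and that of Cfp reached from −0.51 to 0.15. Of the 21 other complement genes 0 were called, and 2 had an unadjusted p under 0.05 (9.52%, against 8.88% of all genes). These were C1qa (−0.33 ± 0.11), with no overlap of groups, and C1s1 (0.18 ± 0.08), with overlap.

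**Figure D4:**
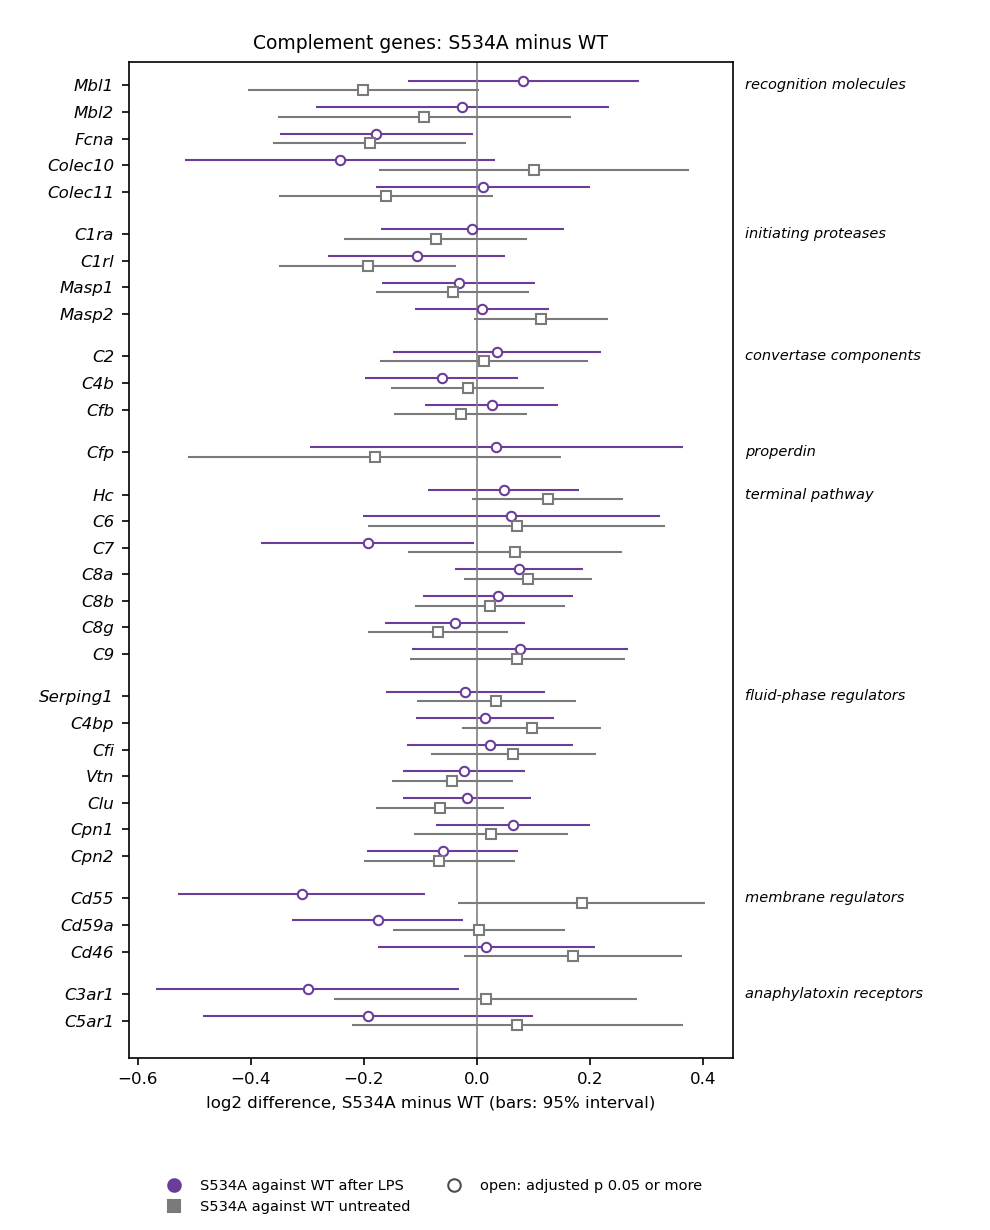
Difference between S534A and WT of the 32 measured complement genes on the log2 scale (x axis), after LPS (circles) and without treatment (squares), with 95% intervals of the limma fit. All symbols are open, since no adjusted p was under 0.05, and the differences lie between −0.31 and 0.19.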

How the data were processed

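The deposited values are log2 levels per probe set, and the submitters' processing notes name RMA, which the authors used without a version given in the labels; labelling was with a whole-transcript kit per the labels' protocols. RMA puts arrays on a common scale, so changes are relative to the array as a whole. Signal over background was not assessed, since scanner files were not used, and precision is limited by the 4 arrays a group.

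Of 35556 probe sets the 21789 with 1 gene symbol in the platform annotation were used (1621 had several, 12146 none). All 32 members matched RefSeq (GRCm38.p6) by gene ID. Probe sets above an array's 30th percentile in at least 4 arrays were kept, and the 15908 genes were fitted with limma 3.58.1 in R 4.3.3 (4 group means, 12 residual and 4.28 prior degrees of freedom, two-sided); the fit was checked on simulated data. Alternatives left out the filter or raised it to the median, averaged probe sets, centred arrays, repeated quantile normalization, weighted arrays, used a trended and robust prior, a replicate block, only the compared groups or a minimum of 1.5-fold, and left out 3 arrays with shifted clock genes or each array in turn. Summed marker levels are log2 of summed linear values.

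Members and lists were chosen with earlier results of these data known. All members are named, with every array's value where a called change reached 0.5, the 5 of lowest p where none was called, and the other complement genes that were called; every array's value of Cd55 was added after its values were seen. Plots used Python 3.11.15 and matplotlib 3.10.9.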

Additional observations from a re-analysis of the deposited data

Results flagged for a closer look

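Of 128 groups of 4 arrays (32 members in 4 groups) 4 held an array far from the other three by Dixon's criterion, where chance gives about 1 in 20. Untreated WT array 2 was low for Colec10 (9.19, the others 9.51 to 9.55) and for Cd59a (11.44, the others 11.70 to 11.73). Untreated WT array 4 was high for Cd55 (7.83, the others 7.46 to 7.52). Untreated S534A array 4 was high for C8a (12.23, the others at 12.21), within a range of 0.02. Colec10 and Cd59a fell in both genotypes without any 1 array, and Cd55 is described above. No member passed the test of the interaction.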

How the results depend on the processing

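There were 27 alternatives, 16 of which leave out 1 array, and 26 for the interaction, which already uses all 4 groups. The stricter filter left out C7, Cd46, Fcnb, Itgax and Csmd1. In both genotype comparisons and the interaction none of the tested members and other complement genes was called under any alternative run for it. Over all genes at most 0.0377% were called in either direction there, with 1 exception. With array quality weights 1.35% were higher and 0.974% lower in untreated S534A than in untreated WT. After LPS no called gene changed sign. With a minimum of 1.5-fold the members counted 1 higher and 4 lower in WT and 1 higher and 5 lower in S534A, and the other genes 3 higher in each. Median centring gave 4 members higher and 18 lower in S534A, in place of 7 and 10, all 10 being among the 18, and 3 other genes higher. Without the 3 arrays with shifted clock genes 3 other genes rose in WT, in place of 5. Leaving out each array in turn gave 5 to 7 members higher and 9 to 13 lower in WT, and 4 to 7 higher and 9 to 11 lower in S534A; the 4 came without untreated S534A array 2, where Mbl1, C4b and Clu were lost. For the other genes it gave 4 to 5 higher and 7 to 8 lower in WT, and 4 to 6 higher and 8 to 9 lower in S534A. In these 16 settings 13.8% to 15.3% of all genes rose and 27.2% to 31.7% fell in WT. The shares in S534A were 12.6% to 15.7% and 28.7% to 32.4%. The causes were not tested. Groups share replicate numbers, but in none of the 4 comparisons did every same-numbered pair deviate together (correlations of −0.49 to 0.59; between the untreated genotypes 0.59 for each of 2 numbers, −0.49 and −0.20 for the others), and 2 to 4 of 8 arrays correlated best with their own number. With the replicate block 6 members rose and 10 fell in WT (14.7% and 29.3% of all genes), and 5 rose and 10 fell in S534A (13.8% and 30.7%).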

Other observations

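Of the 32 measured members 18 lay on average above the 95th percentile of an array. Their median absolute change after LPS was 0.15 in WT and 0.14 in S534A, against 0.37 and 0.29 for the other 14 members. Over all genes tested the 843 above that percentile had a median absolute change of 0.20 in WT and 0.21 in S534A, and the 15065 others 0.21 and 0.22. Scanner files were not used here, so whether the brightest probes were near saturation was not assessed.

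Of 11 pairs of tested complement genes that are immediate neighbours on a chromosome, 5 were called in the same direction and 1 in opposite directions in both genotypes. In the others 1 gene or neither was called (3 and 2 pairs in WT, 2 and 3 in S534A). The same tally over neighbouring pairs of all genes was not made, so whether these counts are unusual cannot be told. Of all genes tested 14.9% rose and 29.9% fell in WT, and 14.2% rose and 31.2% fell in S534A. C1qa, C1qb and C1qc on chromosome 4, Cd59a and Cd59b and also Thbd and Cd93 on chromosome 2, and C2 and Cfb on chromosome 17 changed in 1 direction in both genotypes. C5ar1 and C5ar2 on chromosome 7 changed in opposite directions in both. In the pairs Itgam and Itgax, C1rl and C1ra, and in WT C8b and C8a, only the first was called, and in Cd46 and Cr1l and in C1ra and C1s1 neither was.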
